A study of Capra hircus with 2 samples.

Results

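AMH (anti-Müllerian hormone) and AMHR2 (its type II receptor) were followed across the cell types of the fetal goat ovary and across single granulosa cells. The members were the features that carry the symbol AMH (ENSCHIG00000024227) or AMHR2 (ENSCHIG00000007964), 1 feature each, so 2 of the 27271 features. The samples were ovaries of female Capra hircus fetuses, 1 library from an earlier stage, E85, and 1 from a later stage, E125 (days of embryonic development). No genotype or treatment is named, and the labels do not say how many fetuses gave each library. Cells were captured in droplets and their RNA was tagged with unique molecular identifiers (UMIs), each of which stands for 1 captured molecule. Spread between animals could therefore not be measured, no test was run, and the differences below describe these 2 libraries only. All intervals are 95% intervals for counting error.

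AMH is a secreted hormone of the TGF-beta family. In the male fetus it comes from Sertoli cells and removes the Müllerian ducts, and in the female it is a product of the granulosa cells of growing follicles, where it restrains the recruitment of primordial follicles. The precursor is cut by proprotein convertases, the mature ligand binds AMHR2, and AMHR2 pairs with the type I receptors ACVR1, BMPR1A or BMPR1B. The type I receptors phosphorylate SMAD1, SMAD5 and SMAD9, which enter the nucleus with SMAD4 and switch on targets such as the ID genes. AMHR2 is the one component of this chain that the bone morphogenetic proteins (BMPs) do not share.

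The E85 library held 4397 barcodes and 17748948 UMIs, and the E125 library 8346 barcodes and 49692252 UMIs, with medians of 2991 and 3044 UMIs per barcode. After filters, 3825 and 7023 cells were kept. Cells were clustered without AMH and AMHR2, and clusters were named from marker lists that hold neither gene. Pregranulosa-like cells, the somatic cells that surround oocytes, numbered 230 at E85 and 592 at E125. At E85 they formed cluster 9, led by TFF2, ERP27, SYT6, CYP19A1 and FSHR, and at E125 nearly all of them (591) formed cluster 13, led by SYT6, KCNK12, TFF2, HSD17B1 and AMH. These clusters shared GSTM3, SLC35G1, SYT6 and TFF2 among their 10 leading genes, and each was almost wholly of 1 library, so a cluster may mark the library as well as the cell type. Cluster 13 also held 15 E85 cells, which were named steroidogenic-like and so lay outside the class. They were led by CYP17, CYP11A1 and FST. Their mean marker share for pregranulosa cells was 0.618, against 0.568 in cluster 9 at E85. The protocol text speaks of testes whereas the tissue and sex labels say ovary and female. The egg coat gene ZP3 stood at 8955 CPM (counts per 1000000 summed UMIs of a class) in germ-cell-like cells at E85 and 9538 CPM at E125. In pregranulosa-like cells at E85 and E125, DMRT1, a transcription factor of Sertoli cells, had 1 and 4 UMIs, and the Sertoli ligand DHH had 1 and 2 UMIs. SOX9, which drives Sertoli cells and AMH in the testis, stood at 17.9 CPM and 13.1 CPM in these cells. INSL3, from the same list of testis supporting or Leydig cell genes, had 3 and 27 UMIs, a ratio of 1.91 (0.588 to 9.84). PTGDS, CLDN11 and CYP17A1 of that list had no feature with the symbol. A feature named CYP17 was present, but it was not on the list and so was not part of this check. It led the 15 steroidogenic-like cells above and 1 sub-cluster of the E125 class described below.

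AMH was almost absent from the E85 library and abundant at E125. All 4397 E85 barcodes together held 4 AMH UMIs, or 0.225 CPM (0.0614 to 0.577), and the 8346 E125 barcodes held 1545, or 31.1 CPM (29.6 to 32.7). Among kept cells the counts were 3 and 1491 UMIs, a level 179-fold higher at E125 (61.0 to 867). In sums over a whole library, more cells of the AMH-producing type and more AMH per cell cannot be told apart, so the class was compared next. Pregranulosa-like cells held 2 AMH UMIs at E85, or 1.33 CPM (0.161 to 4.79), and 1267 at E125, or 178 CPM (169 to 188). The ratio was 134 (37.1 to 1111), and the width of its interval comes from the 2 UMIs at E85. Other measures differed with the stage too. Mitochondrial UMIs made up a median of 5.44% per E85 cell and 2.79% per E125 cell of the class, and its 10 germ cell markers summed to 39.1 CPM (9 with UMIs, DAZL at 0) and 89.7 CPM (10 with UMIs). Their part in the AMH ratio was not tested.

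The rise of AMH was far outside the range of most genes in the class. Of 7278 genes measured with at least 50 summed UMIs in pregranulosa-like cells, 14.4% had an E125 level of 2-fold or more the E85 level, and 10.8% had an E85 level of 2-fold or more the E125 level. AMH belonged to the higher ones, and 2 measured genes, C4orf48 and a feature without a symbol, had a higher ratio. The median log2 ratio of all measured genes was -0.06. With other scalings that median was 0.15 (trimmed mean of M-values, TMM) or 0.18 (DESeq2 size factors), and the share of higher genes among those past 2-fold went from 57.2% to 71.7% or 73.4%. AMH was then 155- or 158-fold higher. Of the neighbours of AMH in the RefSeq annotation, SF3A2 showed no such rise. SF3A2, a splicing factor gene on one side, had 10 and 29 UMIs in the class, a ratio of 0.616 (0.292 to 1.42), and JSRP1 on the other side had 0 and 10 UMIs.

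**Figure D1:**
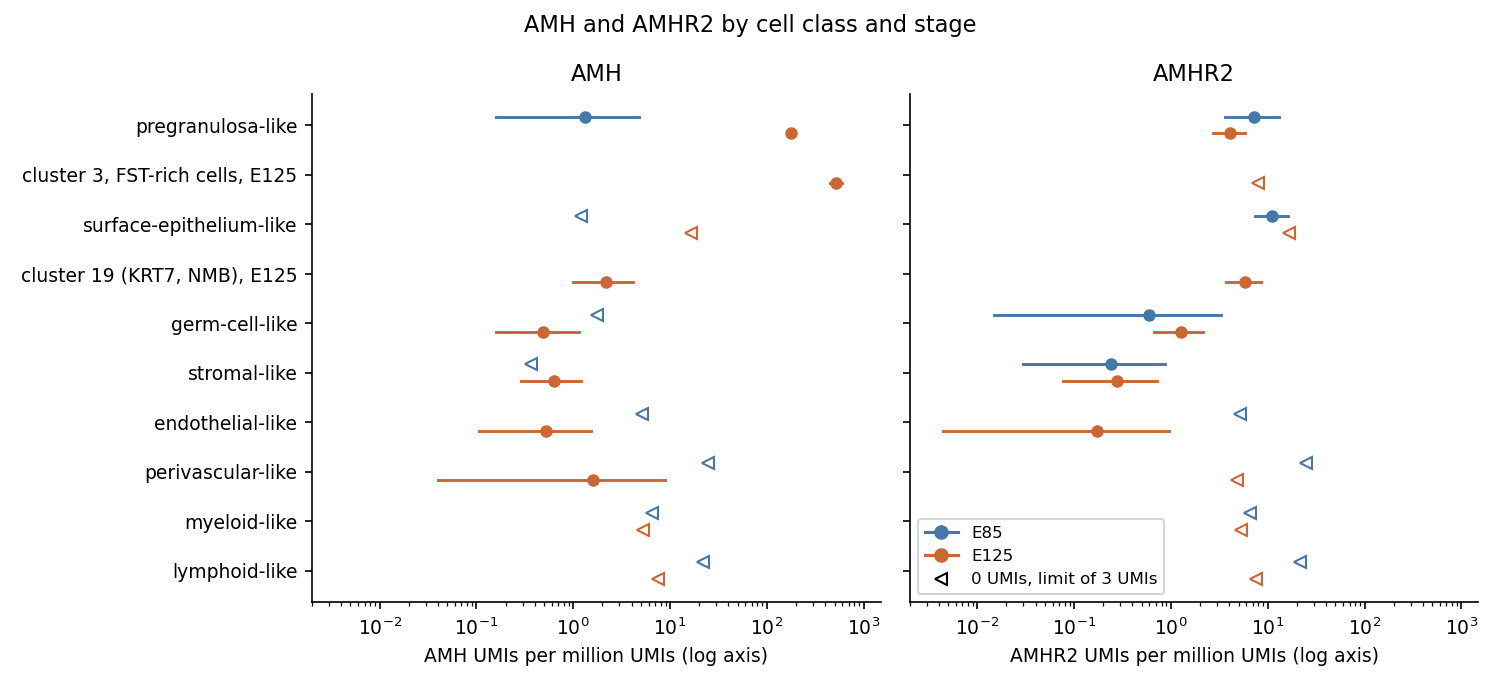
AMH (left) and AMHR2 (right) in CPM, on a log axis, by cell class in the E85 and E125 libraries; points are summed levels, bars exact Poisson 95% intervals, and open triangles the limit of 3 UMIs where a class had 0. The AMH level was 178 CPM in E125 pregranulosa-like cells and 1.33 CPM in those of E85. The highest measured AMHR2 level, 11.2 CPM in E85 surface-epithelium-like cells, was within counting error of E85 pregranulosa-like cells (7.30 CPM). Limits of some classes with 0 AMHR2 UMIs lay above it, such as 24.7 CPM in E85 perivascular-like cells.

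Nearly all AMH molecules at E125 came from pregranulosa-like cells and from a small group of dividing cells. Pregranulosa-like cells gave 85.0% of the AMH UMIs of kept cells (83.1 to 86.8). Another 196 UMIs (13.1%, 11.5 to 15.0) came from the E125 part of cluster 3, an unnamed cluster of 220 dividing cells led by CKAP2, TPX2, HMMR and TOP2A. Within it all 196 lay in 1 sub-cluster of 24 cells, led by FST, HSD17B1, AMH and INHA, genes of granulosa cells. The other 4 sub-clusters of dividing cells had 0 AMH UMIs in 47, 36, 45 and 68 cells. The 24 cells with FST carried AMH at 517 CPM (447 to 595) next to TOP2A, a topoisomerase of dividing cells, at 1928 CPM. This AMH level was close to that of the highest sub-clusters of pregranulosa-like cells described below.

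Outside pregranulosa-like cells and cluster 3, AMH was scarce at E125. The other 6211 kept cells held 28 UMIs in 26 cells (0.419%, 0.274 to 0.613), a level of 0.762 CPM (0.506 to 1.10). The level in pregranulosa-like cells was 234-fold higher (161 to 354). Stromal-like cells had 9 AMH UMIs in 4528 cells, endothelial-like cells 3 in 753, germ-cell-like cells 5 in 135 and perivascular-like cells 1 in 130. Myeloid-like, lymphoid-like and glia-like cells had 0 UMIs in 108, 90 and 76 cells. Cluster 19 (281 cells) had 9 UMIs, or 2.16 CPM (0.990 to 4.11). It stayed unnamed, with a mean marker share of 0.495 for pregranulosa cells and 0.386 for surface epithelium. The intervals of the levels in these classes and cluster 19 overlapped, and none of their order is read. At E85, 0 AMH UMIs were found in 2781 stromal-like, 302 surface-epithelium-like, 85 endothelial-like and 69 germ-cell-like cells. The 15 steroidogenic-like cells of E85 also had 0, which by the limit of 3 UMIs allows up to 72.7 CPM.

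The share of cells with an AMH UMI followed the level. At an equal depth of 2000 UMIs per cell, AMH was detected at E85 in 0 of 224 pregranulosa-like cells, which by the limit of 3 counts allows a share of up to 1.34% of cells with a UMI at this depth. At E125 it was detected in 127 of 531 (23.9%, 20.3 to 27.8). The draw left out 6 and 61 shallower cells. Cells that should lack AMH had 0 of 655 (endothelial-like) and 0 of 86 (myeloid-like) at E125, while stromal-like cells had 7 of 3438 (0.204%, 0.0819 to 0.419) and germ-cell-like cells 1 of 103. At the depth deposited, E85 had 2 positive cells of 230 (0.870%, 0.105 to 3.11) and E125 had 279 of 592 (47.1%, 43.0 to 51.2), with median depths of 5824 and 7862 UMIs. Endothelial-like cells then had 3 of 753 (0.398%, 0.0822 to 1.16) at a median of 4886 UMIs. The E125 share depends on which cells the class holds, from 14.5% under a looser naming rule to 44.6% with the libraries clustered separately, both at equal depth.

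AMH was spread unevenly among E125 pregranulosa-like cells. Of 592 droplets, 313 had 0 AMH UMIs, 93 had 1, 96 had 2 to 4, 56 had 5 to 9 and 34 had 10 or more, with a highest count of 51. The 59 droplets with the highest counts held 731 of the 1267 UMIs (57.7%). Droplets with AMH were deeper, with a median of 9593 UMIs against 6536 in those without. The level itself did not follow depth. In 4 groups of 148 cells from the shallowest to the deepest, AMH stood at 288 (237 to 347), 131 (109 to 156), 245 (219 to 273) and 159 (147 to 171) CPM. The share of cells with a UMI went up with depth over the same groups, from 27.0% to 37.2%, 52.0% and 72.3%.

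Sub-clusters that were formed without AMH and AMHR2 nevertheless differed strongly in AMH. The E125 class fell into 4 sub-clusters. Sub-clusters 0 (164 cells) and 1 (206 cells) had 151 and 205 AMH UMIs, or 66.7 (56.5 to 78.3) and 70.7 (61.4 to 81.1) CPM. Sub-cluster 0 was led by CYP17, ECRG4 and REG4, and sub-cluster 1 by EXPH5, RELN and BMP3. Sub-cluster 2 (184 cells, led by LARGE2, CYM, SRGN, NEDD9 and FST) had 766 UMIs, or 460 CPM (428 to 494). Sub-cluster 3 (38 cells, led by PADI2, LGMN and SLC5A7) had 145 UMIs, or 525 CPM (443 to 617). Sub-cluster 2 stood 6.51-fold above sub-cluster 1 (5.57 to 7.63), whereas sub-clusters 3 and 2 (1.14, 0.948 to 1.36) and sub-clusters 1 and 0 (1.06, 0.855 to 1.32) did not differ beyond counting error. The FST-rich dividing cells were 1.12-fold above sub-cluster 2 (0.956 to 1.32), also within counting error. At a finer sub-cluster resolution of 1 the class fell into 9 sub-clusters, of which 3 had AMH between 523 and 586 CPM, 3 between 57.7 and 76.4 CPM, and 3 lay between, at 115, 141 and 167 CPM.

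At equal depth the same order held for the share of cells with AMH. It was 11.5% (6.98 to 17.6) in sub-cluster 0, 12.2% (7.72 to 18.1) in sub-cluster 1, 41.4% (33.9 to 49.2) in sub-cluster 2, 52.9% (35.1 to 70.2) in sub-cluster 3 and 45.5% (24.4 to 67.8) in the FST-rich dividing cells. Median depths of these cells were 7934, 7075, 8419, 7635 and 14265 UMIs. Among all kept cells of both libraries, 43 droplets held 10 or more AMH UMIs. Sub-cluster 2 had 27 of them, the FST-rich dividing cells 9, sub-cluster 3 had 4, sub-cluster 1 had 2 and sub-cluster 0 had 1, and the 9806 cells elsewhere had 0.

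**Figure D2:**
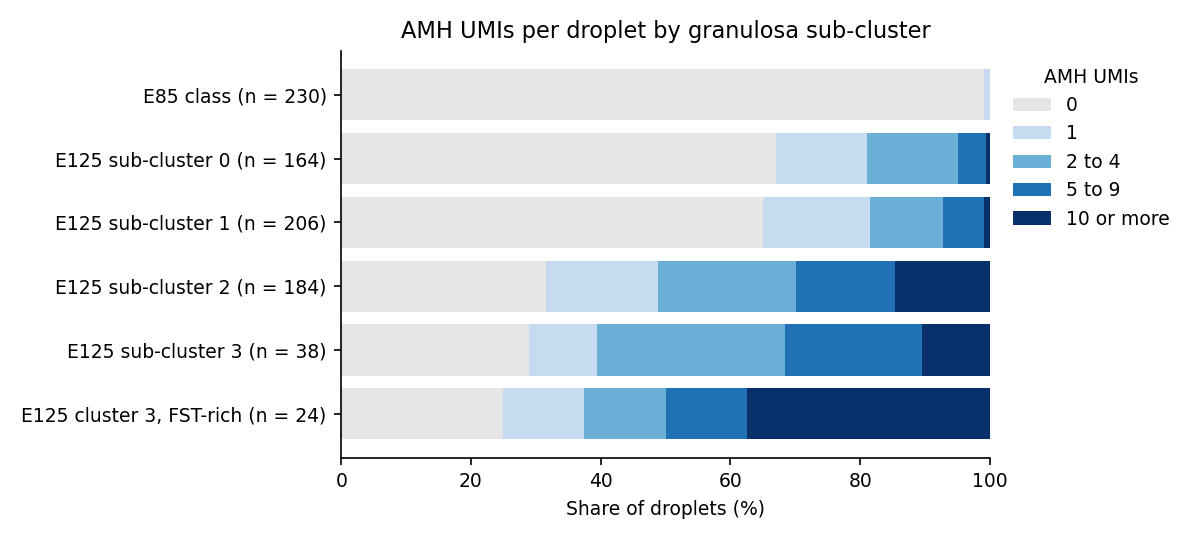
Share of droplets (%) by their number of AMH UMIs, for the E85 pregranulosa-like class, the 4 E125 sub-clusters and the FST-rich cells of cluster 3, with the number of droplets given for each. Droplets of 10 or more AMH UMIs make up 14.7% of sub-cluster 2, 10.5% of sub-cluster 3 and 37.5% of the FST-rich dividing cells, and 0.610% and 0.971% of sub-clusters 0 and 1.

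Of the granulosa genes, some lay at like steps between these sub-clusters and others did not. Their counts entered the clustering, so their levels describe the sub-clusters and are no independent finding. HSD17B1, an estrogen-synthesis enzyme, stood at 225 and 158 CPM in sub-clusters 0 and 1, and at 1204, 1708 and 1319 CPM in sub-clusters 2 and 3 and the FST-rich dividing cells. FSHR, the receptor of follicle-stimulating hormone, stood at 49.1 and 44.8 CPM in the low pair and at 247, 387 and 198 CPM in the other 3. INHBA, an activin subunit, stood at 13.3 and 9.66 CPM in the low pair and at 72.7, 90.4 and 94.96 CPM in the other 3. FST, the activin antagonist follistatin, did not follow AMH in every group. It reached 3049 and 3163 CPM in sub-cluster 2 and the dividing cells, but 499 CPM in sub-cluster 3, below the 772 and 848 CPM of sub-clusters 0 and 1. CYP19A1, KITLG and GJA1 did not follow AMH. CYP19A1, the aromatase gene, stood at 27.8, 60.0, 42.6, 10.9 and 18.5 CPM in sub-clusters 0 to 3 and the dividing cells. KITLG, a ligand that granulosa cells present to the oocyte, stood at 166, 242, 219, 141 and 111 CPM, and the gap junction gene GJA1 at 99.4, 185, 226, 109 and 116 CPM, in the same order. The vesicle gene SYT6 had the opposite order to AMH, with 185 and 318 CPM in the low pair and 64.9, 3.62 and 15.8 CPM in the high groups. RELN, which encodes the matrix protein reelin, likewise stood at 240 and 417 CPM in the low pair, at 3.604 and 15.8 CPM in sub-cluster 2 and the dividing cells, and at 0 UMIs in sub-cluster 3.

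Some regulators of AMH transcription also differed between AMH-low and AMH-high sub-clusters, with the same limit. NR5A2, a nuclear receptor of granulosa cells, stood at 4.42 (2.12 to 8.13) and 3.45 (1.65 to 6.34) CPM in sub-clusters 0 and 1 and at 22.2 (15.6 to 30.6) CPM in sub-cluster 2. NR0B1 (DAX1), which antagonises NR5A1 on the AMH promoter, had the opposite order, 39.3 (31.6 to 48.4) and 32.4 (26.2 to 39.7) CPM against 8.41 (4.597 to 14.1) CPM. SOX9 was likewise at 13.7 (9.31 to 19.4) and 20.7 (15.8 to 26.6) CPM in the low pair and at 1.20 (0.145 to 4.34) CPM in sub-cluster 2. GATA4 and WT1, activators of AMH, varied less, from 18.1 to 47.5 CPM and from 197 to 290 CPM across the 5 groups. Markers of other cells differed too. The 10 germ cell markers summed to 62.3 and 83.1 CPM in sub-clusters 0 and 1, against 129, 145 and 92.3 CPM in sub-clusters 2 and 3 and the dividing cells. The 4 steroidogenic markers summed to 73.8 and 36.9 CPM in the low pair and to 21.6, 50.6 and 7.91 CPM in the others. The feature named CYP17, the first leading gene of sub-cluster 0, was not among these 4 markers. The part of germ cell or steroidogenic RNA in the AMH levels was not tested.

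**Figure D3:**
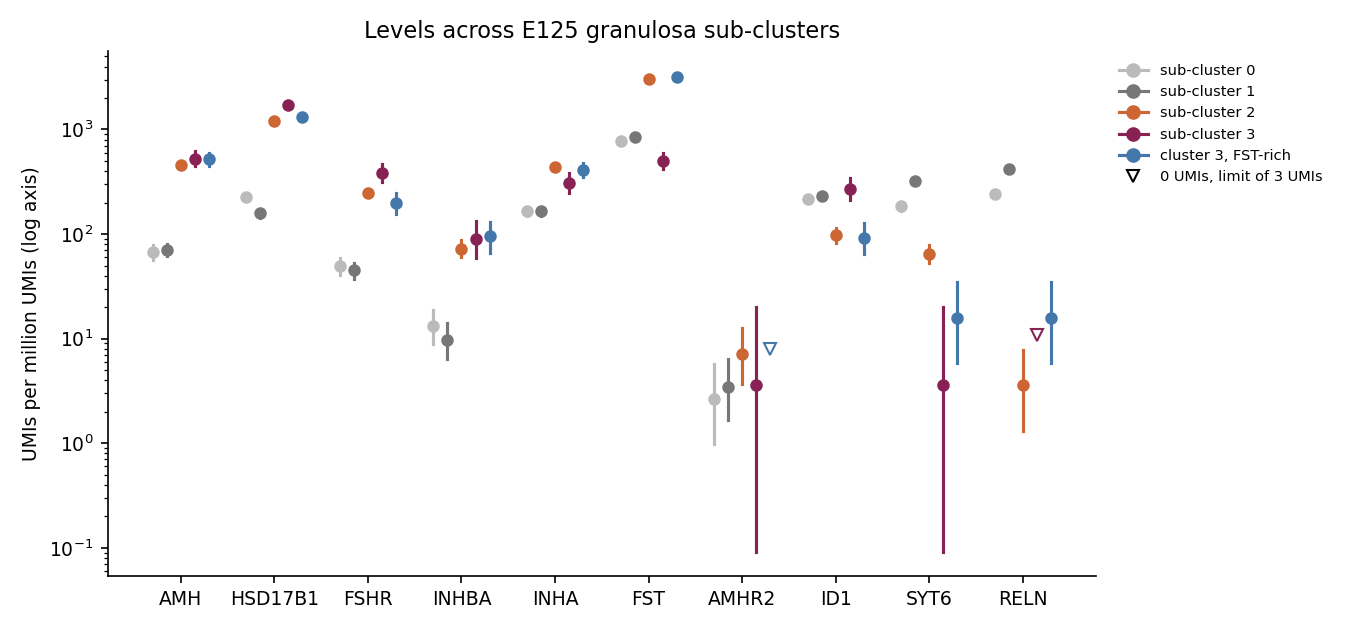
Levels of 10 genes in CPM, on a log axis, in the 4 E125 sub-clusters and the FST-rich cells of cluster 3; points are summed levels, bars exact Poisson 95% intervals, and open triangles the limit of 3 UMIs where a group had 0. AMH, HSD17B1, FSHR and INHBA are low in sub-clusters 0 and 1 and high in the other 3 groups, and SYT6 and RELN lie the other way.

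AMHR2 was a rare transcript with a different distribution. Kept cells held 46 AMHR2 UMIs at E85, or 2.82 CPM (2.07 to 3.76), and 71 at E125, or 1.56 CPM (1.22 to 1.97). The E125 level was 0.554 of the E85 level (0.377 to 0.822). With a stricter cell filter (at least 800 genes and at most 10% mitochondrial UMIs) the ratio was 0.781 and its interval (0.491 to 1.27) included 1. Surface-epithelium-like cells at E85 (cluster 0, 302 cells, led by KRT8, PCSK1 and NMB) held 28 of the 46 UMIs (60.9%, 45.4 to 74.9). They had the highest measured level of any class, 11.2 CPM (7.43 to 16.2). Their name rests on 4 measured markers, and the mean marker share for pregranulosa cells was 0.432. The position of these cells in the ovary was not measured. Pregranulosa-like cells held 11 UMIs, or 7.30 CPM (3.64 to 13.1). The ratio of these classes was 1.53 (0.740 to 3.41), within counting error. Stromal-like cells, the largest class, held 2 UMIs in 2781 cells, or 0.243 CPM (0.0295 to 0.879), a level 30.0-fold below pregranulosa-like cells (6.55 to 278).

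At E125 most AMHR2 UMIs lay in pregranulosa-like cells and cluster 19. Pregranulosa-like cells held 29 of the 71 UMIs (40.8%, 29.3 to 53.2), or 4.08 CPM (2.73 to 5.86). Cluster 19, led by CITED1, ERICH3, NMB and KRT7, held 24 UMIs (33.8%, 23.0 to 46.0), or 5.77 CPM (3.70 to 8.59). Its level was 1.41 of that in pregranulosa-like cells (0.788 to 2.51), within counting error. Germ-cell-like cells held 13 UMIs, or 1.27 CPM (0.674 to 2.16), 3.23-fold below pregranulosa-like cells (1.62 to 6.76). These 13 UMIs lay in 10 of 135 droplets, 1 of which held 4, and droplets with AMHR2 had a median of 149441 UMIs against 30749 in those without. Stromal-like cells had 4 UMIs in 4528 cells, or 0.280 CPM (0.0764 to 0.718), and endothelial-like cells 1 in 753. Perivascular-, myeloid-, lymphoid- and glia-like cells had 0 UMIs in 130, 108, 90 and 76 cells.

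Between the stages, AMHR2 in granulosa cells did not rise with its ligand. In pregranulosa-like cells the level was 7.30 CPM at E85 and 4.08 CPM at E125, a ratio of 0.560 (0.271 to 1.24) whose interval includes 1. With 40 summed UMIs the gene fell under the minimum of 50 and was not counted as measured. At equal depth 6 of 224 E85 cells had AMHR2 (2.68%, 0.989 to 5.74). At E125, 4 of 531 had it (0.753%, 0.206 to 1.92), and these counts are too low to read a change. At the depth deposited the shares were 4.78% (2.41 to 8.40) and 4.90% (3.30 to 6.96), with 1 UMI in every positive droplet. Stromal-like cells had 0.0719% and 0.0883% at medians of 2755 and 2815 UMIs. The E125 surface-epithelium-like class had 25 cells and 0 AMHR2 UMIs, which gives no usable ratio. Clusters were therefore compared by number, although cluster 19 scored higher on pregranulosa than on surface epithelium markers. Cluster 0 at E85 and cluster 19 at E125 shared CITED1, CYTL1, NMB and TMEM114 among their 10 leading genes, and the E125 level of AMHR2 was 0.516 of the E85 level (0.286 to 0.923). With the stricter filter the ratio was 1.10 (0.388 to 3.14). In each alternative the clusters were picked anew by the summed level of these shared genes. The interval also included 1 at resolution 2 (0.570, 0.235 to 1.43) and with separate clustering (0.547, 0.226 to 1.38). It did so too with another seed and with AMH and AMHR2 kept in the clustering. With no cell filter, no doublet removal or resolution 0.5 it lay below 1. Median mitochondrial shares were 8.92% in cluster 0 and 7.80% in cluster 19, against 4.10% and 3.35% over all kept cells, and the part of RNA quality in the ratio was not tested.

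Within E125 pregranulosa-like cells AMHR2 showed no clear order. Sub-clusters 0, 1, 2 and 3 held 6, 10, 12 and 1 UMIs, or 2.65 (0.973 to 5.77), 3.45 (1.65 to 6.34), 7.21 (3.72 to 12.6) and 3.62 (0.0916 to 20.2) CPM. Sub-cluster 2 stood 2.72-fold above sub-cluster 0 (0.944 to 8.83), within counting error. The 24 FST-rich dividing cells had 0 AMHR2 UMIs, which by the limit of 3 UMIs allows up to 7.91 CPM. The shares of droplets with AMH had overlapping intervals with and without AMHR2. AMH was detected in 16 of 29 droplets with AMHR2 (55.2%, 35.7 to 73.6) and in 263 of 563 without (46.7%, 42.5 to 50.9), at medians of 10536 and 7759 UMIs. At equal depth it was detected in 3 of 4 and in 124 of 527, too few droplets with AMHR2 to compare.

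The genes with the profiles most like those of AMH and AMHR2 were different ones. Pearson's r of log2(CPM + 10) was taken over 28 cluster parts of at least 30 cells, which share 2 libraries, as a description. Only genes of at least 50 CPM in some part were compared. AMHR2 itself reached at most 11.2 CPM, near the 10 CPM added, and had 0 UMIs in many parts, so its r values rest on few parts. For AMH the closest of 5142 genes were CYM, the chymosin gene (0.960), the glycosyltransferase gene LARGE2 (0.877), HSD17B1 (0.871), FSHR (0.737) and FST (0.728), and each of them had its highest level in E125 cluster 13. For AMHR2 they were TMEM114 (0.918), the neuropeptide gene NMB (0.914), SYCN (0.914), CYTL1 (0.910) and the protease inhibitor gene SERPINA5 (0.884), with the highest levels in E85 clusters 0 and 9. AMH and AMHR2 had an r of 0.123, and of 0.356 over the 16 E125 parts alone, where r of AMH with FSHR was 0.943.

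Lists of AMH pathway genes, transcription regulators and granulosa genes were counted in pregranulosa-like cells. The background was 14.4% higher and 10.8% lower genes. From lists of 48 genes, 46 had a feature and 34 were measured, and of these 13 passed 2-fold upward and 1 passed it downward. Their median log2 ratio was 0.68, against -0.06 over all measured genes. In the lists of processing, receptor, SMAD, inhibitor and target genes alone, 6 of 13 measured genes were higher and 0 lower, with a median of 0.84. Of the 13 genes past 2-fold upward, ratios in stromal-like cells are given beside each. The list genes FST, INHA, HSD17B1, FSHR, KITLG, GATA4, NR5A1 and NR0B1 were also among the markers that named the class.

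Among receptors and processing enzymes that AMH shares with the BMPs, 4 passed 2-fold upward and 0 downward. PCSK5, a convertase that cleaves AMH, stood at 5.31 and 24.4 CPM (8 and 173 UMIs), 4.59-fold higher (2.28 to 10.8). In stromal-like cells it was 2.48-fold higher (2.15 to 2.88), and in the class it reached 9.84-fold with separate clustering. The convertases PCSK6 (5 and 11 UMIs) and FURIN (1 and 6 UMIs) were too low to be measured. Within E125, PCSK5 stood at 50.5 (40.2 to 62.5) CPM in AMH-high sub-cluster 2 and at 13.3 (8.94 to 18.9) and 15.2 (11.03 to 20.4) CPM in sub-clusters 0 and 1. Of the 3 type I receptors, BMPR1A was 2.55-fold higher (1.24 to 6.07, from 8 UMIs), and 4.94-fold higher in stromal-like cells (3.76 to 6.60). BMPR1B, at 53.7 and 94.5 CPM, had a ratio of 1.76 (1.39 to 2.24), and ACVR1 one of 1.55 (0.929 to 2.74). BMPR1B had its highest sub-cluster level in sub-cluster 2, 175 CPM (156 to 197). Sub-clusters 0 and 1 stood at 58.3 (48.8 to 69.2) and 76.6 (66.8 to 87.3) CPM. AMH-high sub-cluster 3 and the FST-rich dividing cells stood at 90.4 (58.5 to 134) and 92.3 (64.3 to 128) CPM. The intervals of both overlapped that of sub-cluster 1. Of the other type II receptors, ACVR2B was 2.63-fold higher (1.61 to 4.61) and ACVR2A 2.05-fold (0.888 to 5.82, from 6 UMIs), while BMPR2 had a ratio of 0.836 (0.563 to 1.27). In stromal-like cells ACVR2B was 2.23-fold higher (1.68 to 3.004) and ACVR2A 2.01-fold (1.48 to 2.75).

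Of the SMADs, 0 of 3 measured were past 2-fold. SMAD1 had a ratio of 1.44 (0.948 to 2.26), SMAD5 of 0.861 (0.705 to 1.06) and SMAD4 of 1.79 (1.37 to 2.38), and SMAD9 had 0 and 2 UMIs. The pseudoreceptor BAMBI, which blunts signalling, stood at 119 and 78.8 CPM (0.664, 0.560 to 0.790). The inhibitory SMAD6 and SMAD7 had 2 and 6 and 0 and 7 UMIs. Among the targets, ID1 was 16.5-fold higher (10.4 to 27.9), from 11.9 to 197 CPM, and 9.15- to 26.9-fold higher at clustering resolutions of 0.5 and 2. ID1 was 36.2-fold higher in stromal-like cells (27.1 to 49.4). It was also higher at E125 in endothelial-like cells (181 and 2875 CPM) and germ-cell-like cells (2.35 and 24.6 CPM). The part of AMH in the ID1 levels was not tested. Within E125, ID1 was lower in AMH-high sub-cluster 2 and the FST-rich dividing cells, 97.3 (82.9 to 114) and 92.3 (64.3 to 128) CPM, than in sub-clusters 0 and 1, 216 (197 to 236) and 233 (216 to 251) CPM. AMH-high sub-cluster 3 stood with the latter, at 271 CPM (213 to 340). ID3 had a ratio of 2.07 (1.52 to 2.88), but 0.491 at a clustering resolution of 0.5, so no direction is read; in stromal-like cells it was 2.56-fold higher (2.44 to 2.68). ID4 had 2 and 45 UMIs.

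Of the 17 regulators of AMH or AMHR2 transcription, 12 were measured, 2 of them higher and 1 lower. These counts were near the shares over all measured genes, 14.4% higher and 10.8% lower, so the list as a whole did not stand out. GATA6, a partner of GATA4 in granulosa cells, was 7.38-fold higher (2.82 to 27.4, from 4 UMIs), and 7.11-fold higher in stromal-like cells (5.17 to 10.0). NR5A2 had 0 UMIs at E85 and 63 at E125, so it was measured through its E125 counts alone. With E85 set to the floor of 3 UMIs the ratio was 4.46, and the exact interval started at 3.52. This floor ratio was 2.72 under the looser naming rule and 10.01 with separate clustering, and stromal-like cells had 0 and 2 UMIs. CTNNB1 (beta-catenin) was at 93.5 and 39.0 CPM, 2.40-fold lower (1.94 to 2.95), but within 2-fold by the mean over cells (0.618), at resolution 2 (0.537) and with no cell filter (0.504). The other 9 lay within 2-fold, among them FSHR (88.2 and 107 CPM), WT1 (212 and 257 CPM) and GATA4 (21.2 and 35.3 CPM). NR5A1 had 8 and 19 UMIs, too few to be measured.

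Of the 13 granulosa genes, 11 were measured, 6 higher and 0 lower. FST, INHA, HSD17B1, FSHR and KITLG helped to name the class, so their ratios are not independent of that naming. FST was 7.22-fold higher (6.40 to 8.16, 184 and 1326 CPM), HSD17B1 5.58-fold (4.68 to 6.69, 86.9 and 485 CPM), INHBA 3.61-fold (2.02 to 7.10), INHBB 2.17-fold (1.74 to 2.75) and the inhibin subunit INHA 2.07-fold (1.77 to 2.44), with NR5A2 as the sixth. In stromal-like cells FST was 2.03-fold higher (1.36 to 3.11), HSD17B1 2.32-fold (1.75 to 3.14) and INHBB 7.78-fold (2.87 to 29.6), INHBA had a ratio of 1.77 (1.59 to 1.96) and INHA of 0.608 (0.302 to 1.23). INHA and INHBB sat at the threshold, and were under 2-fold in 6 and 7 of 14 alternative settings. HSD17B1 and FST varied from 3.63 and 4.56 under a looser naming rule to 14.7 and 13.7 with separate clustering, where INHBA was 8.93-fold higher. CYP19A1 stood at 72.3 and 43.8 CPM (0.606, 0.485 to 0.760), and KITLG at 170 and 209 CPM. The ratio of AMH, 134, was larger than that of every other measured gene on these lists that had UMIs at E85.

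**Figure D4:**
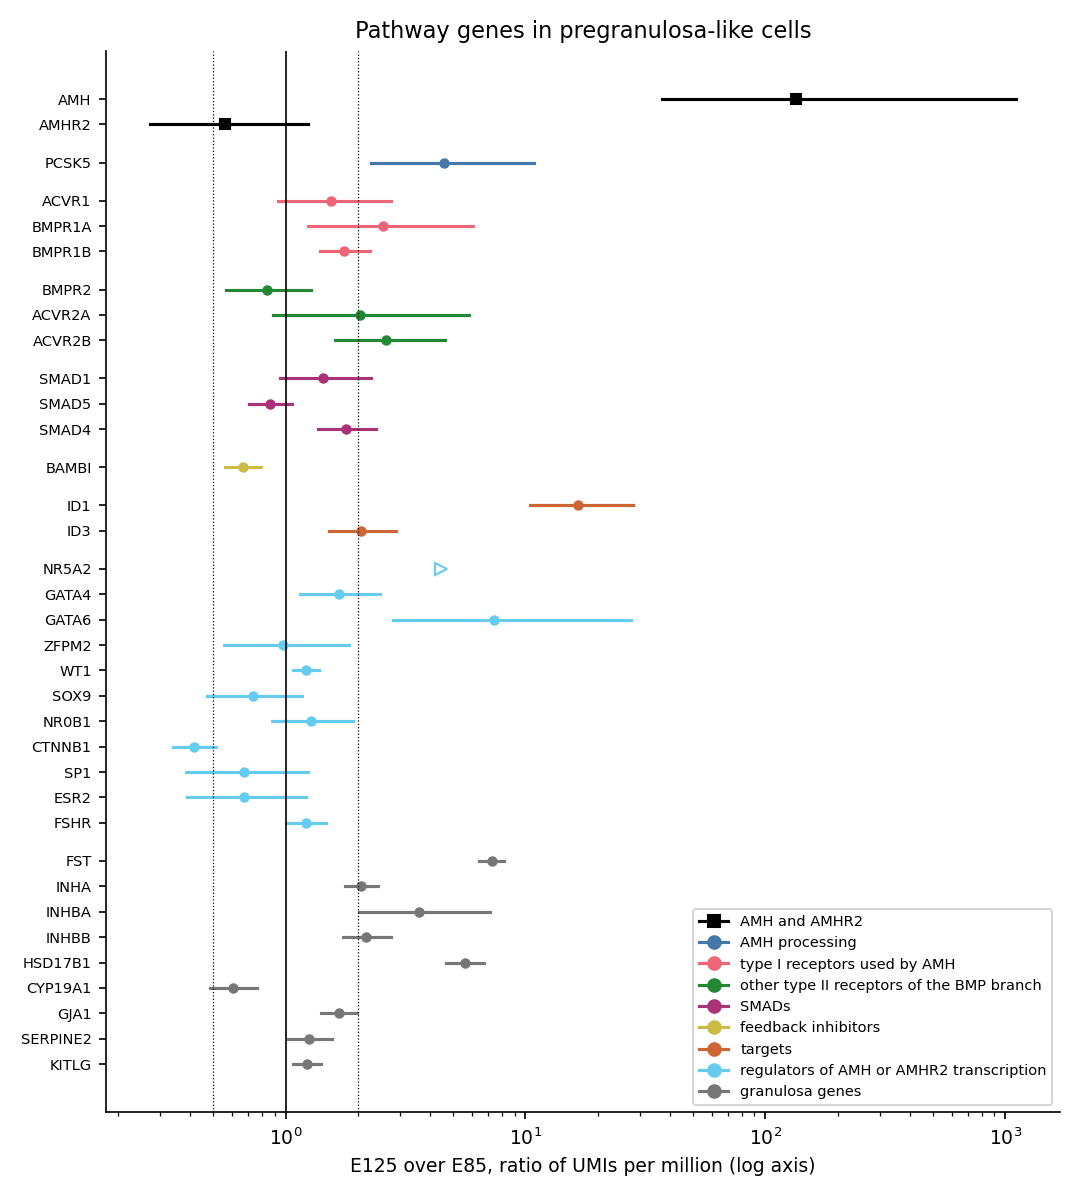
Ratio of E125 to E85 levels (CPM, log axis) in pregranulosa-like cells for AMH, AMHR2 and measured pathway genes, coloured by list (1 measured regulator is not drawn). Points are ratios, bars exact conditional 95% intervals, and dotted lines mark 2-fold. The open triangle (NR5A2) is the ratio with the E85 count of 0 set to the floor of 3 UMIs. AMH lies at 134, beyond ID1 at 16.5, and AMHR2 at 0.560 with an interval that includes 1.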

How the data were processed

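Per the file headers the deposited values are raw UMI counts per gene and barcode, whole numbers with no normalization, written by Cell Ranger 6.0.0, whereas the submitters' processing notes name Cell Ranger 3.1. The genome build is not given in the sources used here. Per the labels' protocols the libraries used a 10x 3' kit of version 3.1. The members and all gene lists were chosen with earlier results of these data known. The protocol's testis wording was set aside for the ovary labels.

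Barcodes with under 500 genes or over 20% of UMIs from 13 mitochondrial genes were left out (425 at E85, 809 at E125). Scrublet's own threshold called 2 and 0 doublets and so had not worked, and the highest-scoring 0.8% per 1000 barcodes (155 and 557) were removed instead; some doublets will remain. The libraries share 13 barcode sequences (0.296% of those at E85). With scanpy 1.11.5, both libraries were clustered together (log of counts per 10000, the 2000 most variable genes without AMH, 30 principal components, 15 neighbours, Leiden resolution 1), and sub-clusters at resolution 0.5.

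A cluster took the class whose markers had the highest mean share of their maximum over the library's clusters. At least 3 measured markers, a mean of 0.3, 3 markers at 0.25 and a lead of 0.15 over the next class were needed. The marker minimum and the lead were set after the clusters and their AMH counts had been seen. A difference from the study may come from these rebuilt names.

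Counts were summed per class and divided by the class total (CPM). Sums carry exact Poisson, shares exact Clopper-Pearson and ratios exact conditional 95% intervals. A count of 0 was set to a floor of 3 UMIs per class sum for limits and ratios. A gene was measured with 50 summed UMIs and called at 2-fold. Shares were compared after thinning each cell to 2000 UMIs. The named genes were AMH, AMHR2, the list members past 2-fold or with a role explained, 5 most like genes per member and the annotated neighbours (RefSeq, by name). Alternatives used edgeR 4.0.16 (TMM) and DESeq2 1.42.0 size factors, other filters, clusterings, naming rules and depths. The ratio, interval and thinning code was tested on simulated counts. Values of 1 gene of the regulator list are not reported here, though it stays in the counts.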

Additional observations from a re-analysis of the deposited data

Results flagged for a closer look

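AMH and AMHR2 also appeared among E125 barcodes left out of the main cell classes, above the 3 UMIs that a count of 0 allows. These barcodes were part of the counts over all barcodes, and alternatives without the cell filter or doublet removal drew on them. The 809 barcodes that failed the cell filter held 19 AMH UMIs in 13 barcodes, or 14.0 CPM (8.41 to 21.8), and 6 AMHR2 UMIs, or 4.41 CPM (1.62 to 9.60). The 514 barcodes that passed the filter and were removed by doublet score held 35 AMH UMIs in 17 barcodes, or 11.8 CPM (8.24 to 16.5). At E85 the barcodes removed in these ways held 0 and 1 AMH UMIs.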

How the results depend on the processing

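No paired analysis was possible because each stage has 1 library. With 1 library per stage, stage cannot be told apart from animal, batch or dissociation, and counts of 2 AMH UMIs at E85 and 11 and 29 AMHR2 UMIs limit every ratio built on them. AMH was higher at E125 in all 15 alternatives. Where E85 held AMH UMIs, the ratio ran from 87.0 with naming without the margin to 328 with separate clustering. In cells thinned to 2000 UMIs, where E85 held 0, it was 29.2 with the floor of 3 UMIs, and the exact interval started at 23.6. The AMHR2 ratio in pregranulosa-like cells stayed between 0.281 and 0.850 in all 15, and in stromal-like cells between 0.746 and 2.45 on at most 4 UMIs a side. The count of genes past 2-fold on the pathway, regulator and granulosa lists ran from 10 (thinned) to 21 (resolution 2) around 14. The E125 share of cells with AMH was 47.1% without thinning, 18.2% thinned to 1000 UMIs, 19.4% with no cell filter, 28.1% at resolution 2, 44.6% with separate clustering, 19.9% with another seed, 19.0% with AMH and AMHR2 kept in the clustering and 14.5% without the naming margin. The E85 share was at most 0.870%. AMHR2 between clusters 0 and 19 turned from 0.516 to 1.10 with the stricter filter, and ID3 from 2.07 to 0.491 at resolution 0.5. The cause was not tested. That AMHR2 interval also included 1 at resolution 2, with separate clustering, with another seed and with AMH and AMHR2 kept in the clustering. The surface-epithelium-like ratio of AMHR2 had no usable value because E125 held 0 UMIs in 25 cells; where the class held more E125 cells, levels went from 11.2 to 5.53 CPM under naming by fold from 12.3 to 5.80 CPM at resolution 0.5, from 12.4 to 6.85 CPM with separate clustering and, the other way, from 7.25 to 7.998 CPM with the stricter filter. At sub-cluster resolution 1 the highest AMH level was 10.1-fold above the lowest, against 7.86-fold at 0.5. Naming without the margin, the addition of the FST-rich dividing cells, the sub-cluster resolution and the settings for kept cells and for clusters 0 and 19 were chosen after seeing the data.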
